A study of Tulipa gesneriana with 15 samples.

Results

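RNA of whole wild-type tulip flowers (Tulipa gesneriana) was sequenced at 5 stages, with 3 libraries each. These were buds, flowers in partial and then full blooming, and flowers in early and then late senescence. Described here are the 200 genes whose level varied least over those 15 libraries. They were chosen by their measured values. A gene had to reach 20 FPKM (fragments per unit of gene length and library size) in every library, which 3229 of the 76388 listed genes did. Those 3229 were ranked by a score, the standard deviation of FPKM over the 15 libraries divided by the mean, and the 200 lowest scores were taken.

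Genes with a steady level serve as the internal standard of RT-qPCR, in which the transcript of interest is read relative to a reference transcript. In plants, genes for actin, tubulin, ubiquitin, elongation factors and protein phosphatase subunits are in common use for this purpose. Flower opening and petal senescence remodel much of the transcriptome, since cells first expand and then break down their proteins, membranes and nucleic acids. FPKM is a relative measure, and a gene steady in FPKM is not known to be steady in amount per flower. Nor need it hold a steady share of the summed FPKM, since those sums differed between libraries. The identifiers are not paired with names, positions or functions in the sources used here, so none of the 200 genes is given a role.

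The libraries themselves set a limit on how steady a gene can appear. Sums of FPKM ran from 861035 in partial blooming replicate 1 to 1094997 in late senescence replicate 1. The depth behind the values is unknown. On log2(FPKM + 1), full blooming replicate 3 correlated at 0.883 on average with the other libraries of its stage and at 0.909 with those of partial blooming. Full blooming replicate 1 was also slightly closer to partial blooming, at 0.930 against 0.925. Bud replicate 2 correlated at 0.734 with late senescence and at 0.700 with early senescence, while bud replicates 1 and 3 correlated more with early senescence. These are correlations across genes, which are not independent replicates. The labels do not tell whether replicate libraries derive from separate plants, so the spread between them may be technical.

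The 200 genes had scores from 0.0413 to 0.129, with a median of 0.110. The median over the 3229 genes that met the minimum was 0.297. As the rule used these scores, they are given as a description. There was no gap at the limit. The last genes inside, F01.PB33260 and F01.PB7567, had scores of 0.1287 and 0.1289. The first genes outside, F01.PB58508 and F01.PB6070, both had scores of 0.1290. F01.PB33260 ran from 25.8 FPKM in full blooming replicate 2 to 41.6 in full blooming replicate 3, so its extremes lay within 1 stage. F01.PB58508, outside the limit, ran from 134.9 FPKM in partial blooming replicate 1 to 194.4 in full blooming replicate 3. Altogether, 64 genes had a score under 0.1, and 344 had a score under 0.15.

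**Figure D1:**
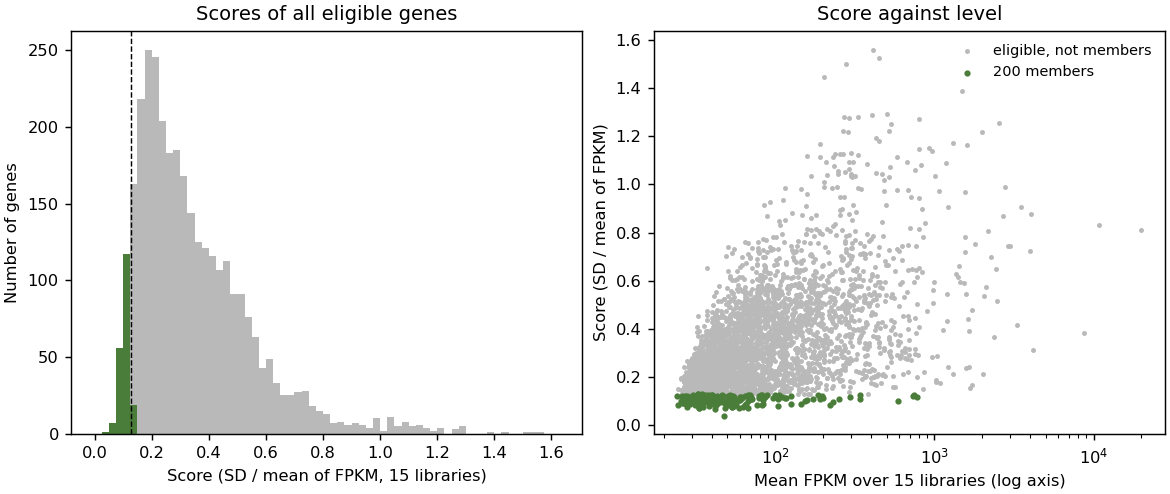
Left, the number of genes by score, the standard deviation over the mean of FPKM in 15 libraries, for the 3229 genes at 20 FPKM or more in all libraries (grey) and the 200 members (green), with the limit dashed at 0.129. Right, the score against the mean FPKM on a log axis, in which the members lie along the lower edge and mostly at low levels.

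Most of the steady genes were of moderate level. Their mean FPKM ran from 24.2 to 781, with a median of 43.9, against a median of 71.8 over the genes that met the minimum. Of the 108 eligible genes with a mean from 20 to 30 FPKM, 31 (28.7%) were members. Of the 859 from 30 to 50 FPKM, 85 (9.90%) were members, and of the 1078 from 50 to 100 FPKM, 58 (5.38%). Of the 840 from 100 to 300 FPKM, 20 (2.38%) were members, and of the 344 at 300 FPKM or more, 6. The minimum enters this pattern by construction, because a gene with a mean near 20 FPKM that varied much would drop under 20 in some library. The median score of eligible genes was 0.153 at means from 20 to 30 FPKM and 0.408 at means from 100 to 300 FPKM.

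The steadiest gene was F01.PB5565, at 47.4 ± 1.95 FPKM (SD, n = 15 libraries). Its bud libraries were at 45.95, 48.08 and 47.01 FPKM, those of partial blooming at 48.10, 48.09 and 49.17, and those of full blooming at 44.99, 46.48 and 49.44. The early senescence libraries were at 48.09, 50.89 and 43.45 FPKM and the late senescence libraries at 45.27, 46.58 and 48.94. Both its lowest and its highest library belonged to early senescence, and the libraries of neighbouring stages overlapped, except that each bud library was just below each of partial blooming. Its highest library exceeded its lowest 1.17-fold, and its highest stage mean exceeded its lowest 1.03-fold, the smallest values of both ratios among the 3229 genes. Stage held 9.3% of the variance of its log2 FPKM. Such shares are not corrected for the number of stages, and spread between libraries alone gives part of them.

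The next 4 genes were less steady than F01.PB5565 and close to each other, with scores from 0.0699 to 0.0737. F01.PB8411 was at 42.0 ± 2.94 FPKM (SD, n = 15 libraries), with its lowest value in early senescence replicate 1 (38.78) and its highest in full blooming replicate 3 (47.89). F01.PB61015 was at 32.9 ± 2.40 FPKM, from 29.14 in partial blooming replicate 3 to 36.88 in early senescence replicate 3. F01.PB5637 was at 48.1 ± 3.52 FPKM, from 42.16 in late senescence replicate 2 to 53.98 in bud replicate 2. In these 3 genes stage held from 25.7% to 30.6% of the variance. F01.PB10874, at 67.1 ± 4.94 FPKM, differed from them in that stage held 64.7%. Its mean was 72.3 ± 4.84 FPKM (SD, n = 3) in partial blooming and 60.8 ± 2.71 in early senescence, and the libraries of these stages did not overlap.

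**Figure D2:**
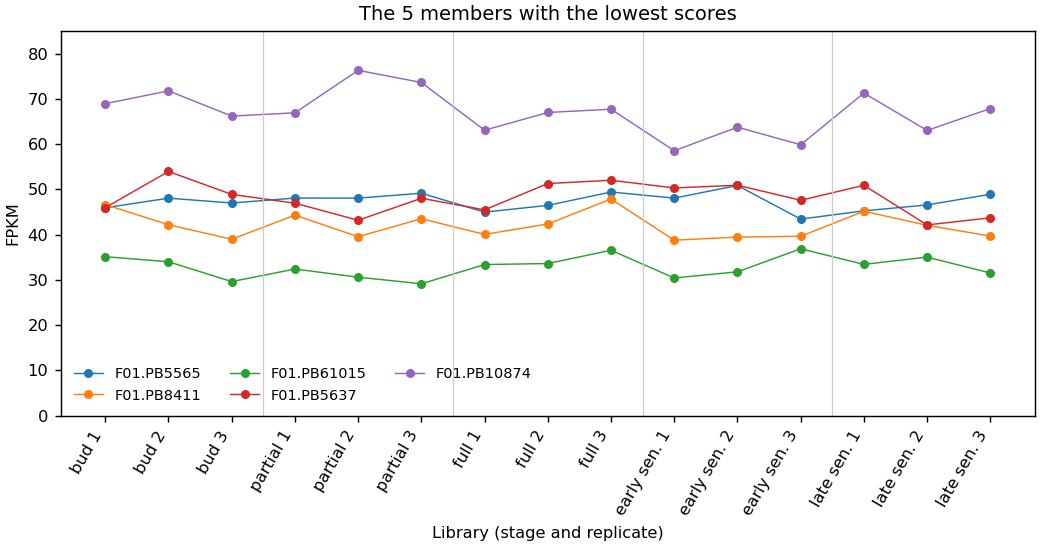
FPKM in each of the 15 libraries for the 5 members with the lowest scores, joined by lines, with grey lines between the stages. F01.PB5565 stays between 43.45 and 50.89 FPKM, and F01.PB10874 is highest in partial blooming and lowest in early senescence.

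At the upper end of expression, the 3 most abundant members had means from 735 to 781 FPKM. F01.PB57744 was at 781 ± 92.6 FPKM (SD, n = 15 libraries) and was patterned by stage, which held 73.5% of its variance. Buds were at 702 ± 68.6 FPKM (SD, n = 3) and partial blooming at 693 ± 26.4. Full blooming was at 888 ± 87.4 FPKM, early senescence at 841 ± 31.7 and late senescence at 783 ± 47.0. Its full blooming and early senescence libraries all lay above its bud and partial blooming libraries. F01.PB2281, at 747 ± 94.4 FPKM, and F01.PB979, at 735 ± 89.2 FPKM, varied mainly within stages, with 27.4% and 22.4% of the variance between stages. F01.PB2281 was at 623 FPKM in bud replicate 1 and 834 in bud replicate 3. F01.PB979 was at 890 FPKM in late senescence replicate 1 and 610 in late senescence replicate 2.

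Over the 200 genes, the SD of the stage means was about as large as the SD within stages. These are not like measures, since a mean of 3 libraries varies less than a single library. The SD within stages had a median of 8.77% of the mean, and the SD of the 5 stage means a median of 8.07%. Over the 3229 eligible genes these medians were 14.6% and 28.2%. The stage means varied more than the libraries within stages in 83 of the 200 members and in 84.4% of eligible genes. In 106 members, stage held less than 50% of the variance, against 11.03% of eligible genes. The highest library exceeded the lowest by less than 1.5-fold in 129 members, and by 1.71-fold at most. Of the 3229 eligible genes, which include the members, 138 were under 1.5-fold. Between stage means the highest exceeded the lowest by less than 1.2-fold in 82 members, and by 1.42-fold at most. All these measures come from the values that chose the genes.

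Low scores arose from differing mixtures of these spreads. F01.PB6508 had the smallest share of variance between stages, 4.34%. Its stage means lay between 39.9 ± 9.18 FPKM (SD, n = 3) in late senescence and 42.2 ± 1.57 in early senescence. The late senescence libraries were at 47.17, 29.57 and 42.87 FPKM, and so held both its highest and its lowest value. F01.PB33059 had the largest share, 88.7%. Its bud libraries were at 46.85, 48.43 and 50.40 FPKM and its early senescence libraries at 64.08, 62.62 and 61.92. Partial and full blooming lay between at 53.9 ± 1.68 and 58.9 ± 3.93 FPKM, and late senescence was at 54.0 ± 0.79.

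Some difference between stages was found in 11 of the 200 genes (limma's moderated F test over the 5 stages on log2(FPKM + 1), adjusted p under 0.05 over all 47326 genes tested). The same test called 58% of all genes tested and 79.7% of the genes at 20 FPKM or more in every library. Nothing is read from the low count, since the genes were chosen on the same values. The count was 4 without bud replicate 1 or partial blooming replicate 3, and 5 without early senescence replicate 2. It was 6 without partial blooming replicate 2, early senescence replicate 1 or late senescence replicate 1. It was 7 without partial blooming replicate 1, full blooming replicate 1 or 2, or late senescence replicate 3. Without full blooming replicate 3 it was 31.

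Among the 11 were F01.PB33059 and F01.PB59318. F01.PB59318 had the largest rise of any member between the mean of buds and that of late senescence, 0.50 on the log2 scale. It was at 29.38, 36.90 and 29.32 FPKM in buds and at 47.60, 45.70 and 42.09 in late senescence, and its stage means increased at every step through 39.3 ± 1.37, 41.3 ± 0.49 and 42.1 ± 1.48 FPKM (SD, n = 3). The next, F01.PB5660, averaged 52.0 ± 6.72 FPKM over buds and 69.7 ± 5.61 over late senescence, with no overlap between those libraries, and was not among the 11. In the other direction F01.PB12368 averaged 128 ± 4.11 FPKM over buds and 95.6 ± 6.65 over late senescence, a log2 difference of -0.42, and its stage means decreased at every step. F01.PB8 averaged 281 ± 34.8 FPKM over buds and 215 ± 9.52 over late senescence, a difference of -0.38, and its libraries at those stages did not overlap either. These last 2 genes were not among the 11. Of the 200 members, 95 had a higher mean in late senescence than in buds and 105 a lower one, and 5 increased and 3 decreased at all 4 steps. Of the 3229 eligible genes, 166 increased and 139 decreased at all 4 steps. The median log2 difference between late senescence and buds was -0.009 over members and 0.015 over eligible genes.

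At single steps few members were called. Nothing is read from these low counts either, since the genes were chosen on the same values. From buds to partial blooming 1 gene was higher and 1 lower, against 6.62% and 7.69% of all genes tested. These were F01.PB29653 (0.36 on the log2 scale) and F01.PB9172 (-0.38), named after their values were seen. Scaled by median ratios, 2 members were higher and 0 lower at this step, so the call of F01.PB9172 was lost, and after quantile normalization 4 were higher and 2 lower. Leaving out bud replicate 3 kept the number called at 2, and leaving out any other library gave 0, 1 or 4. From partial to full blooming limma called 0 members in each direction, against 0.98% and 0.699% of all genes, and 8 members passed at an unadjusted p under 0.05. From full blooming to early senescence it also called 0, against 8.78% higher and 6.85% lower, with 6 members at an unadjusted p under 0.05. Neither unadjusted count has a share of all genes beside it. The adjusted calls at this step numbered 3 without full blooming replicate 3 and 2 without late senescence replicate 2.

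Late senescence was set against the stage before it and against full blooming. The counts are again a description, as the genes were chosen on the same values. Against early senescence 4 members were higher and 2 lower, where 19.2% and 9.9% of all genes were called. This balance turned with the scaling, to 0 higher and 16 lower by median ratios and 0 higher and 26 lower after quantile normalization. The number called was 10 without full blooming replicate 3, 3 without early senescence replicate 2, and 1 without early senescence replicate 1 or 3 or late senescence replicate 1. Against full blooming 1 member was higher and 4 lower, where 22% and 13.4% of all genes were called. By median ratios 0 were higher and 15 lower, and after quantile normalization 0 were higher and 39 lower, so the higher call was lost under both. The shares of all genes in this paragraph are as deposited. Whether calls over all genes turned alike is therefore not read from these counts. The higher gene was F01.PB12228 (0.38 on the log2 scale). The lower genes were F01.PB33062, F01.PB25834, F01.PB46265 and F01.PB5828, with changes from -0.31 to -0.39. These 5 were named after their values were seen. The number called was 12 without full blooming replicate 3 and 2 without full blooming replicate 1 or 2. The 2 comparisons share the late senescence libraries.

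The members differed in the stage where their mean was highest or lowest. Buds were the highest stage of 50 genes, partial blooming of 26 and full blooming of 44. Early senescence was the highest of 33 and late senescence of 47. As shares these were 25%, 13%, 22%, 16.5% and 23.5% of the members, against 29.0%, 10.03%, 14.8%, 19.0% and 27.2% of eligible genes in the same order. Buds were the lowest stage of 37 members, partial blooming of 59, full blooming of 14, early senescence of 44 and late senescence of 46. Of eligible genes, 27.6%, 13.97%, 5.11%, 28.6% and 24.8% were lowest in these stages, against 18.5%, 29.5%, 7%, 22% and 23% of members. The most frequent pair, with 26 genes, was highest in late senescence and lowest in partial blooming. Over the 19900 pairs of members, log2 FPKM across the 15 libraries correlated at a median of 0.09, from -0.90 to 0.93, with an interquartile range from -0.16 to 0.33. All pairs share the same 15 libraries and their scaling.

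A part of the remaining variation belonged to single libraries. Bud replicate 2 was the highest library of 36 members and late senescence replicate 2 the lowest of 42. Late senescence replicates 1 and 3 were the highest of 28 and 27 members. The median deviation of the members from their own means was 0.10 on the log2 scale in bud replicate 2 and 0.07 in late senescence replicate 1. It was -0.07 in partial blooming replicate 1 and -0.06 in late senescence replicate 2. The libraries of late senescence thus held both high and low values for these genes. Over the eligible genes, on the same measure, the library medians ran from -0.15 in partial blooming replicate 1 to 0.05 in late senescence replicate 1. Over all genes tested, the library medians ran from -0.16 in full blooming replicate 1 to 0.16 in bud replicate 1. Those were taken on log2(FPKM + 1), so they are not a like measure.

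**Figure D3:**
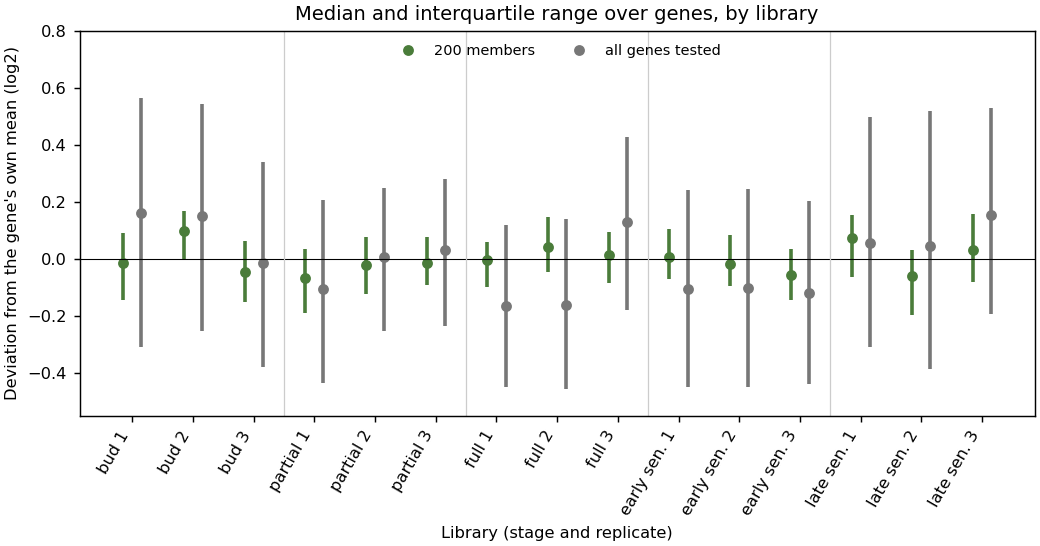
The deviation of each gene from its own mean over 15 libraries, on the log2 scale, as the median (points) and interquartile range (lines) over the 200 members (green, FPKM) and over all genes tested (grey, log2(FPKM + 1)). Member medians lie between -0.07 and 0.10, and those of all genes between -0.16 and 0.16.

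Together the 200 genes held between 1.37% and 1.70% of the summed FPKM of a library. Buds gave a share of 1.56% ± 0.0453 (SD, n = 3), partial blooming 1.60% ± 0.00669, full blooming 1.67% ± 0.0343 and early senescence 1.59% ± 0.0152. Late senescence gave 1.40% ± 0.0246, and those 3 libraries lay below the other 12. Their summed FPKM itself was 14707 ± 737 in late senescence and 14587 ± 371 in early senescence, which overlapped, while the FPKM sums of all genes were highest in the late senescence libraries. In whole flowers, fewer cells of a type and less RNA per cell cannot be told apart in such levels.

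How steady such genes are in libraries that did not choose them was read by leaving out 1 stage at a time. The rule was applied to the 12 libraries of the other 4 stages, and the 200 genes it took were then read in the stage left out. A gene counted as near its level when its mean there lay within 0.25 log2 units of its mean over the 12. Of the genes chosen without full blooming, 178 were near their level in full blooming, and of those chosen without partial blooming 174 were near in partial blooming. The shares over all genes that met the minimum in the other 12 libraries were 53.8% and 47.8%. For early senescence 140 of 200 genes were near, against 33.3%, and for buds 127, against 27%. For late senescence 93 were near, against 27.5%. Of the remaining 107 genes, 47 were higher and 60 lower in late senescence.

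The stages at the ends of the series were therefore those that genes chosen elsewhere kept to least often in these counts, and no test was made of the difference between stages. The shares near their level over all genes that met the minimum were also lowest there, at 27% for buds and 27.5% for late senescence. Genes chosen without a stage and then more than 1 log2 unit away from their level in it numbered 0 for partial and full blooming, 1 for buds, 1 for early senescence and 5 for late senescence. Over all genes that met the minimum in the other libraries, 26.4% were that far away in buds and 23.2% in late senescence. In early senescence 17.1% were, in partial blooming 5.85% and in full blooming 4.51%.

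Over the 5 choices, 7 genes lay more than 1 log2 unit from their level in the stage left out, and 4 of them are described here. The other 3 were F01.PB38288 (-1.19), F01.PB6812 (-1.12) and F01.PB5013 (1.06), all in late senescence. The 7 are not members, and they were named after their values were seen. F01.PB53948 was at 48.3 ± 5.41 FPKM (SD, n = 12 libraries) from partial blooming on, between 37.99 and 56.17, and at 0.39, 0.31 and 0.32 FPKM in buds. That is a log2 difference of -7.15. F01.PB32285 had a score of 0.0501 over the 12 libraries before late senescence, between 54.47 and 62.57 FPKM. In late senescence it was at 29.13, 20.21 and 34.84 FPKM, below each of the others and a log2 difference of -1.07. F01.PB21412 was at 56.7 ± 5.73 FPKM (SD, n = 12 libraries) before late senescence and at 0, 4.50 and 0 in it. An exact 0 may be a failed estimate in such a table, so no fold is given for F01.PB21412. F01.PB3503 differed in the other direction and in another stage, at 54.6 ± 5.67 FPKM over 12 libraries and at 120.73, 106.08 and 133.21 FPKM in early senescence.

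**Figure D4:**
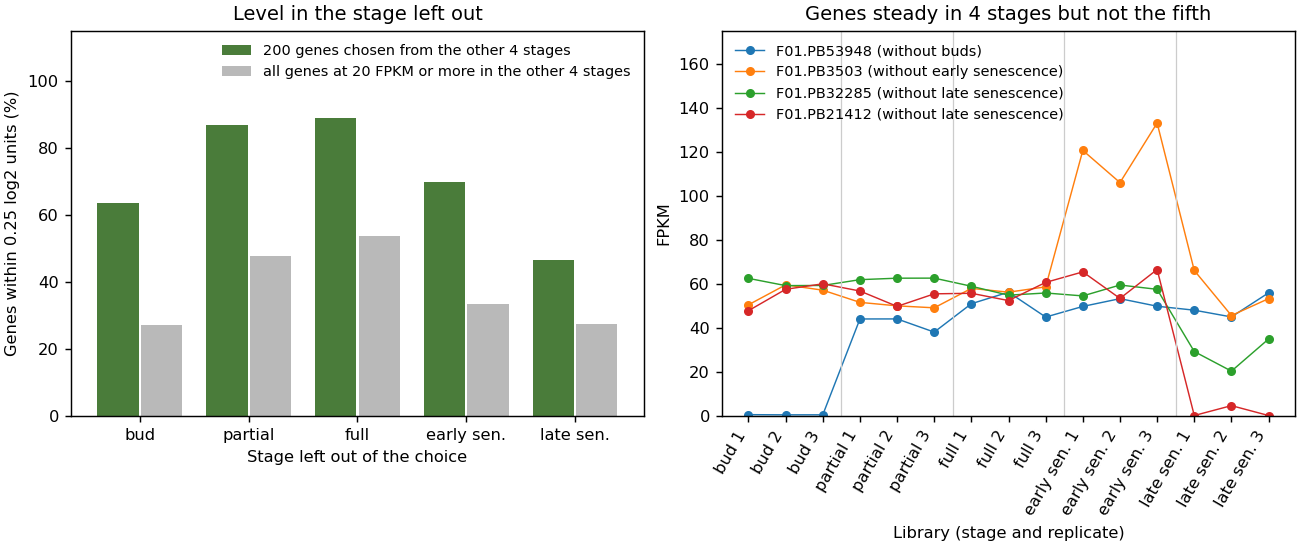
Left, the percentage of genes within 0.25 log2 units of their level in a stage left out of the choice, for the 200 genes chosen from the other 4 stages (green) and for all genes at 20 FPKM or more in those stages (grey). Right, FPKM in the 15 libraries of 4 genes steady in 4 stages and not in the remaining one, such as F01.PB53948, at 0.31 to 0.39 FPKM in buds.

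Leaving out a replicate number asked the same of other libraries of the same stages. When the 10 libraries of replicate numbers 2 and 3 chose 200 genes, their median score was 0.105 there and 0.128 over the 5 libraries numbered 1. Chosen without number 2, the genes had median scores of 0.0991 in the choosing libraries and 0.140 in the others, and without number 3 they had 0.110 in both. Over all genes that met the minimum, the median scores in the libraries left out were 0.332, 0.331 and 0.279. Of the 200 chosen genes, 0, 1 and 1 were at or above that median in the libraries left out. Their median scores there were higher than or equal to those in the libraries that chose them. The libraries left out were of the same stages as the choosing ones, and the spread between replicates may be technical. These scores are therefore a description and not independent support.

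Membership depended on the choices in the rule. Leaving out 1 library kept between 151 and 191 of the 200 genes, the fewest without late senescence replicate 2. Without bud replicate 2 and full blooming replicate 3 together 171 stayed. Leaving out all of late senescence kept 103 genes, and leaving out buds kept 137. With the SD of log2 FPKM as the score 190 genes stayed, and with the median absolute deviation over the median 114. A minimum of 10 FPKM in place of 20 kept 111 genes. A minimum of 50 FPKM kept 56, which is every member whose lowest library was at 50 FPKM or more.

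Scaling the libraries by the median ratio of genes kept 93 members, and quantile normalization kept 144. The size factors of the first ran from 0.881 in full blooming replicate 2 to 1.22 in bud replicate 1. The order of stages within the members turned with the scaling. As deposited, 33 members were highest in early senescence and 44 lowest there. With median-ratio scaling 95 were highest and 2 lowest there, while 92 were lowest in buds. With quantile normalization 106 members were lowest in late senescence, against 46 as deposited. The counts over eligible genes under these scalings are not given here, so this turn is not read as particular to the members. Between early and late senescence the members' median log2 change was 0.03 as deposited. It became -0.20 under median-ratio scaling and -0.13 under quantile normalization. The median change of all genes tested at that step was 0.19, 0.02 and -0.06 under the same scalings.

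Single genes moved far in rank between the scalings. F01.PB33260, the last but one within the limit as deposited, was ranked 1 by median-ratio scaling and 141 after quantile normalization. F01.PB57744, the most abundant member, moved from rank 140 to 685 by median-ratio scaling and to 33 after quantile normalization. F01.PB5565 was ranked 1, 56 and 7. The 5 lowest scores all stayed among the 200 under the 3 scalings.

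**Figure D5:**
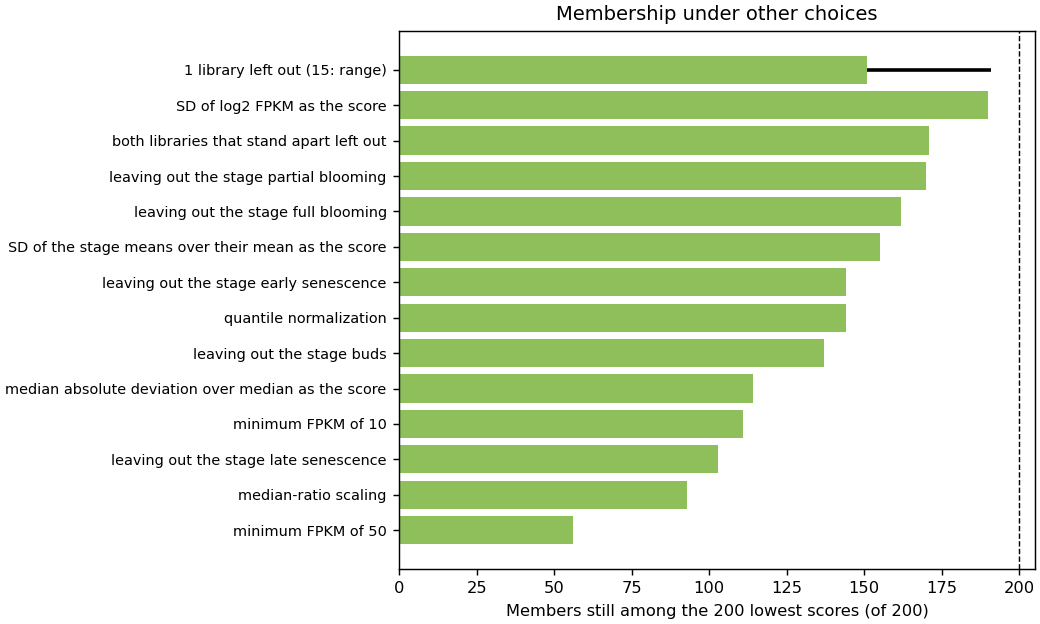
The number of the 200 members that stayed among the 200 lowest scores (bars, of 200) under other choices of score, minimum, scaling, libraries or stages, with the range over 15 libraries left out in turn as a black line from 151 to 191. The fewest stayed with a minimum of 50 FPKM (56) and with median-ratio scaling (93).

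A smaller set stayed under these changes together. Under all 3 scalings 85 members stayed, 138 stayed without each library in turn, and 80 stayed without each stage in turn. Under all of these 50 members stayed, 25% of the 200. Their mean FPKM ran from 25.8 to 153, with a median of 43.9, and their scores reached 0.110. The 5 genes with the lowest scores were among them, as was F01.PB6508. None of the 6 members with a mean of 300 FPKM or more was. The most abundant of the 50, named after its values were seen, was F01.PB58101. Buds had 159 ± 8.60 FPKM of it (SD, n = 3), partial blooming 137 ± 8.03 and full blooming 153 ± 8.99. Early senescence had 150.04 ± 12.96 FPKM and late senescence 168 ± 21.9. Its highest stage mean exceeded its lowest 1.23-fold. Its late senescence libraries, at 142.48 to 181.67 FPKM, all lay above those of partial blooming, at 127.61 to 142.13. Libraries of its late and early senescence overlapped, the latter at 137.40 to 163.29 FPKM.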

How the data were processed

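The authors deposited FPKM values for 15 libraries in 1 table, to 2 decimals. The unit is read from the table's name and its values. The submitters' processing notes name DESeq 1.18.0, HTSeq 0.6.1, TopHat2 2.0.12 and Bowtie2 2.2.3, without roles. Reference sequence and annotation: not given in the sources used here. Columns were matched to libraries by the code in the labels, and all were used. No 2 libraries held identical values.

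The 200 genes, the named genes and the comparisons were chosen with earlier results of these data known. Named were the 5 lowest scores, the 3 highest levels, the 2 largest rises and 2 largest falls from buds to late senescence, the 2 genes on each side of the limit, and the smallest and largest share of variance between stages. Plant reference genes had been listed for counting. Without names for the identifiers, that list gave no count.

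Tests used limma 3.58.1 in R 4.3.3 on log2(FPKM + 1) with a mean-variance trend over all 15 libraries. The fit held the 47326 genes that reached 1 FPKM in 3 or more libraries, and the 200 members all passed this filter. Fold changes on this scale understate the change of low genes. Tests were two-sided, with Benjamini-Hochberg adjustment over all genes tested. The selection and the fits were tested on simulated data. Alternatives were another pseudocount, filter, scaling, score and minimum, no trend, a replicate block, and leaving out libraries or stages.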

Additional observations from a re-analysis of the deposited data

How the results depend on the processing

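Of 338 values recomputed, 262 stayed within 1.5 times (counts) or within the spread between libraries (medians), and 76 moved. Many of those that stayed could not have moved, so the 262 do not measure robustness. The members' median change at a step does not depend on the filter, the trend, the replicate block or libraries of other stages. The causes were not tested. Member counts under other settings have no share of all genes beside them, and are not read as particular to the members. The genes past the 5-stage test numbered 11 as deposited. They numbered 18 with a pseudocount of 0.1, 19 with no filter, 20 with a minimum of 5 FPKM, 5 with no trend, 27 with median-ratio scaling, 40 with quantile normalization, and 24 without bud replicate 2 and full blooming replicate 3. Leaving out 1 library gave 4 to 31.

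Members called from buds to partial blooming numbered 2 as deposited, 6 with quantile normalization, 4 with a minimum of 5 FPKM, 0 with no trend and 1 without the pair of libraries named above (0 to 4 with 1 library left out). From full blooming to early senescence they numbered 0 as deposited, 2 with quantile normalization, and 1 with a pseudocount of 0.1, with no filter, with a minimum of 5 FPKM and without the pair (0 to 3). From early to late senescence they numbered 6 as deposited, 26 with quantile normalization and 16 with median-ratio scaling (1 to 10). From full blooming to late senescence they numbered 5 as deposited, 15 with median-ratio scaling, 39 with quantile normalization, 9 with a minimum of 5 FPKM and 12 without the pair (2 to 12).

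The replicate block used replicate numbers that are shared by the stages. Of 30 same-numbered pairs of libraries 7 correlated above 0.1 in their deviations from stage means, from -0.374 to 0.369, and 4 of 15 libraries were closest to a library of their own number. The labels do not tell whether same-numbered libraries share an origin. With 3 libraries per stage, these correlations cannot decide it. With the replicate block 5 members passed the 5-stage test and 0 were called from buds to partial blooming.

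With median-ratio scaling the median change of the members was 0.092 from buds to partial blooming (-0.05 as deposited), 0.13 to full blooming (0.06), 0.026 to early senescence (-0.04) and -0.20 to late senescence (0.03), and -0.18 between full blooming and late senescence (-0.01). With quantile normalization the last 2 were -0.13 and -0.16. Members kept numbered 93 with median-ratio scaling, 111 and 56 with minimums of 10 and 50 FPKM, 114 with the median absolute deviation, and 103 without late senescence. Of genes chosen without late senescence, 158 lay within 0.5 log2 units there, and the share over all genes at that width is not given here. Scores in left-out replicate numbers 1, 2 and 3 were 0.165, 0.175 and 0.144 with a minimum of 50 FPKM, and 0.124 for number 2 with quantile normalization.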
